A study of Mus musculus with 6 samples.

Results

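The interleukin-1 (IL-1) family and inflammasome genes described here are 10 genes chosen by symbol: Il1a, Il1b, Il1rn, Il18, Il18bp, Nlrp3, Pycard, Casp1, Casp4 and Gsdmd, out of 40773 gene symbols in the count table. They were measured by RNA sequencing in RAW264.7 cells, a mouse macrophage line. One group of 3 cultures received lipopolysaccharide (LPS, 100 ng/mL) together with 3A2, an antibody that neutralizes the membrane-bound metalloproteinase MMP14 (50 µg/mL). The other 3 cultures received LPS alone at the same dose, and both groups were kept for 24 h. The labels describe biological triplicates of 1 line and name no genetic change. Neither untreated cells nor an isotype control antibody were analysed here, so the values show levels under LPS and not the response to it.

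IL-1 family cytokines are made by macrophages after Toll-like receptor signals. IL-1β and IL-18 are made as inactive precursors, and an inflammasome releases the active form: a sensor such as NLRP3 gathers the adaptor ASC, encoded by Pycard, which activates caspase-1. Caspase-1 cuts the precursors and also gasdermin D, which forms pores in the plasma membrane. Caspase-11, encoded in mouse by Casp4, senses LPS in the cytosol and cuts gasdermin D without ASC. The RAW264.7 line is known for lacking ASC.

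Promoter sequences are shown for the member with no read in any library (Pycard), for the neighbouring agonist genes Il1a and Il1b, and for the antagonist Il1rn, the member with the highest level. They are the 250 bases before a RefSeq transcript start in the mouse build GRCm38.p6, written 5′ to 3′, and capitals mark matches to the motifs named after them.
Pycard promoter, chr7:127993868-127994117, minus strand: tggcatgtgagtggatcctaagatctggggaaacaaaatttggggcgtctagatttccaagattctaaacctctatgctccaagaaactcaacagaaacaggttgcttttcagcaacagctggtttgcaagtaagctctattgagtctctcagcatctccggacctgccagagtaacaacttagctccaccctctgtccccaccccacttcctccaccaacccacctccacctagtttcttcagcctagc
Il1a promoter, chr2:129309973-129310222, minus strand: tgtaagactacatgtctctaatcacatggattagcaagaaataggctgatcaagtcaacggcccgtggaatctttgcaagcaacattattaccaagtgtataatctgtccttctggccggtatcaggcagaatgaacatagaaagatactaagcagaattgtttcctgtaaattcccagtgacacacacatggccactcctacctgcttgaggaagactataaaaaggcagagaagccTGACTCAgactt
Il1b promoter, chr2:129371140-129371389, minus strand: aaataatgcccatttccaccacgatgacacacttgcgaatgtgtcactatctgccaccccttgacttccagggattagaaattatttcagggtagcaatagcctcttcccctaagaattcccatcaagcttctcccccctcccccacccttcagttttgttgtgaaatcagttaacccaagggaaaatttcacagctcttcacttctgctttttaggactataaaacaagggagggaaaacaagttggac
Il1rn promoter, chr2:24336610-24336859, plus strand: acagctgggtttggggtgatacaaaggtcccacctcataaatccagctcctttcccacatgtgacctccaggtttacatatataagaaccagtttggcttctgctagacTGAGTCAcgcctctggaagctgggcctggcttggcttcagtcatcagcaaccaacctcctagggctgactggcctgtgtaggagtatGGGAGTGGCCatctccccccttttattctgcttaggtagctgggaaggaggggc
Motifs were searched on both strands as GGGNNNNNCC for NF-kB, TGANTCA for AP-1 and GAAANNGAAA for the interferon-stimulated response element (ISRE). Matches could overlap, and 9 of 10 members had a promoter entry. The NF-kB motif stood in a window of 4 of the 9 members (Il1rn, Nlrp3, Casp1 and Casp4), and in 45.8% of all 32851 windows of the same length. The AP-1 motif stood in 2 of 9 (Il1a and Il1rn), against 6.75% of all windows, and the ISRE motif in 0 of 9, against 2.98%. A member counted if any of its windows matched, while the shares are per window. Members with several starts (Il1rn, Nlrp3 and Casp4) thus had more chances of a match. The capitals in the Il1a promoter are an AP-1 match 12 to 6 bases before the start. Those in the Il1rn promoter are an AP-1 match at 141 to 135 bases and an NF-kB match at 54 to 45 bases. The Pycard and Il1b windows held no match to these letters. The Pycard window had 2 CG dinucleotides, where the median of all windows was 6. This did not set Pycard apart, as windows of the other members with an entry had 1 to 4. The printed Il1rn, Il1b and Il1a windows had 1, 2 and 3. Il1rn has 3 starts in the table, of which the first is printed, and counts per gene cannot tell its secreted and intracellular forms apart.

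Libraries held 6060732 to 6537419 counts with LPS plus 3A2 and 6431096 to 7432553 with LPS. The 8 macrophage markers, such as Csf1r, Cd68 and Itgam, were all detected and tested. They summed to 6241 to 6679 CPM (counts scaled to the library total) with LPS plus 3A2 and to 7169 to 7244 CPM with LPS. Lyz2, which encodes lysozyme and gave more than any other, stood at 0.871-fold (adjusted p = 0.719 by edgeR). Groups did not overlap for Lyz2, Csf1r (0.878-fold) and Itgam (0.942-fold), all lower with 3A2. They overlapped for Adgre1, Cd68, Ptprc, Spi1 and Cd14. Over all genes tested, 6.46% were lower without overlap. The 5 epithelial markers had 0 counts, and neither lymphocyte nor fibroblast markers exceeded a sum of 0.669 CPM in any library. Neutrophil markers reached a sum of 6.51 CPM with LPS plus 3A2 and 7.47 CPM with LPS, with Ly6g and S100a9 at 0. Mmp14 itself had 0 to 6 counts in a library. LPS plus 3A2 replicate 3 stood apart: the 13 mitochondrially encoded mRNAs lay on average 0.45 above the mean of all libraries there on the log2 scale. They lay at 0.11 and -0.14 in LPS plus 3A2 replicates 1 and 2, and between -0.21 and -0.043 in the LPS libraries.

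Pycard was the only member without a read. It had 0 counts in all 3 LPS plus 3A2 libraries and 0 in all 3 LPS libraries. The limit that 0 allows, 3 counts in a library, is 0.401 to 0.501 CPM, and it covers counting error only. Pycard lies on chromosome 7. Of the 2 nearest protein-coding genes at higher coordinates, Trim72 had 0 to 2 counts in a library. The other, Itgam, which encodes the integrin chain CD11b, averaged 406 CPM with LPS plus 3A2 and 431 CPM with LPS. Pycard is listed on the minus strand with no second protein-coding gene over it. Gm45205, which is not listed as protein-coding, overlaps it on the plus strand and has no entry in the count table. The other 9 members had counts in every library and passed the filter on low counts. In RNA from whole cultures, fewer cells with an mRNA and less of it per cell cannot be told apart.

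**Figure D1:**
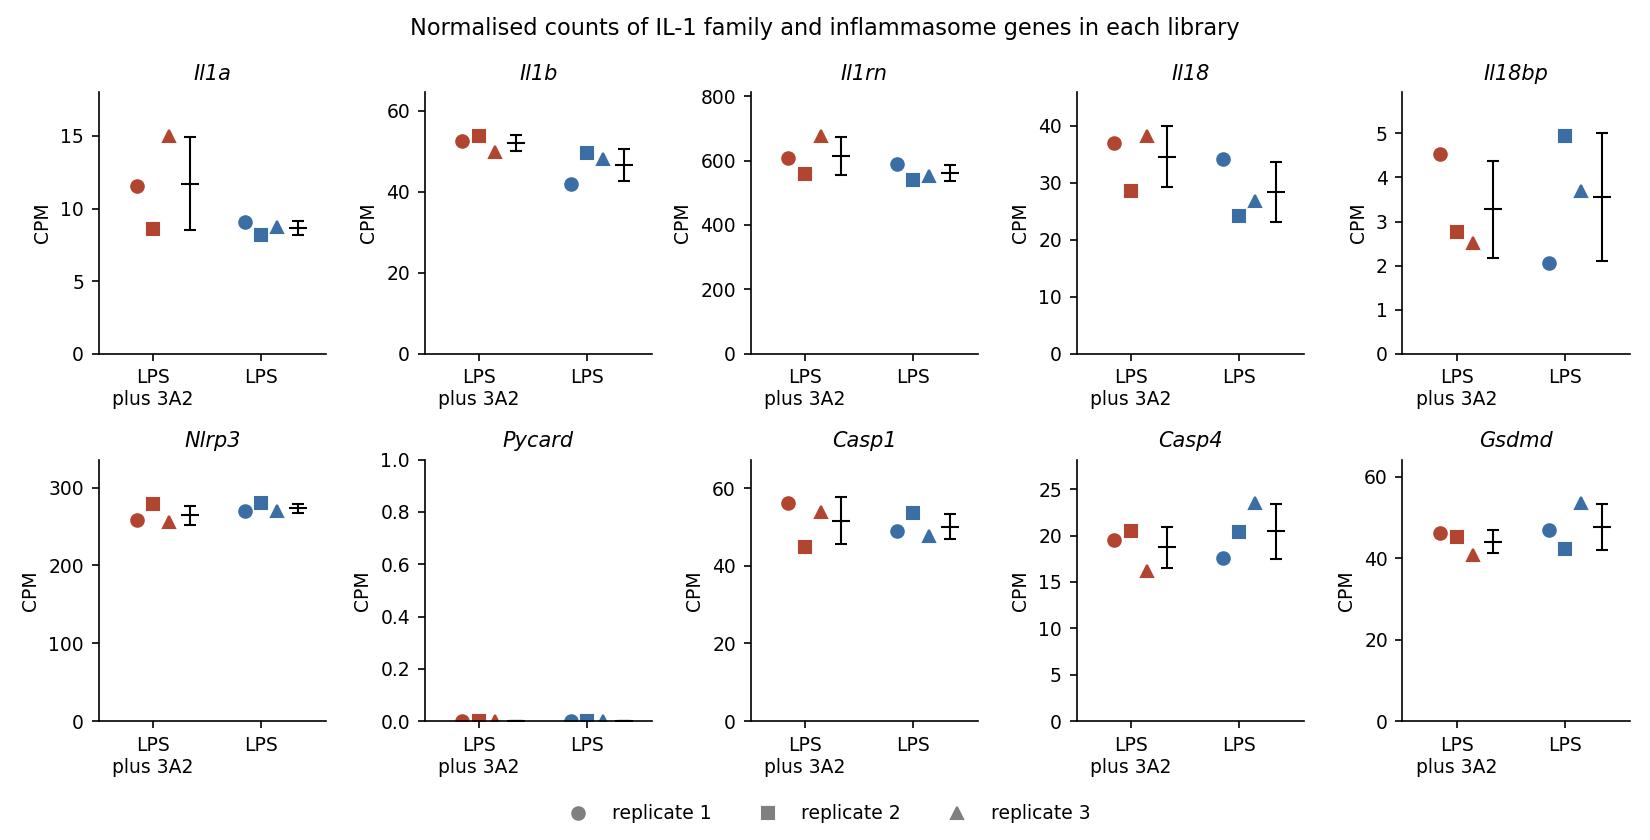
Normalised counts (CPM, linear axis from 0) of the 10 genes in each of the 6 libraries, with LPS plus 3A2 at the left of each panel and LPS at the right; symbols are replicates, and black bars are the mean and SD of 3 libraries. Pycard lies at 0 in all libraries, and the groups overlap for every other gene except Il1b, where the lowest LPS plus 3A2 library is at 49.9 CPM and the highest LPS library at 49.6 CPM.

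Per length of transcript, the antagonist was the most abundant mRNA of the set and Casp4 lay below Casp1. Levels between genes are given as CPM per kilobase of annotated exons (CPM/kb). Il1rn, which encodes the IL-1 receptor antagonist, averaged 111 ± 10.8 CPM/kb with LPS plus 3A2 and 101 ± 4.72 CPM/kb with LPS (SD, n = 3 each). Nlrp3, the sensor, came next at 65.1 ± 3.09 CPM/kb with LPS plus 3A2 and 67.3 ± 1.48 CPM/kb with LPS. No library of one overlapped any of the other. Casp1 spanned 29.9 to 37.5 CPM/kb over the 6 libraries, Il18 spanned 23.4 to 37.1 and Il1b 22.05 to 28.3. Il18 overlapped both of the others, while every Casp1 library lay above every Il1b library. Gsdmd followed at 17.2 to 22.5 CPM/kb, and its range met that of Il1b. Casp4, at 4.37 to 6.33 CPM/kb, and Il1a, at 4.13 to 7.61 CPM/kb, overlapped as well. Il18bp, which encodes the protein that binds and blocks IL-18, was the lowest detected member at 0.678 to 1.64 CPM/kb. With the longest principal transcript as length instead, the order of these 3 changed: Il18, Il1b and Casp1 averaged 40.2, 38.4 and 34.5 CPM/kb with LPS plus 3A2, and 32.9, 34.3 and 33.5 CPM/kb with LPS. On that length Casp4 averaged 13.04 CPM/kb with LPS plus 3A2, above Il1a at 5.94 CPM/kb, where annotated exons put Casp4 at 5.04 CPM/kb, below Il1a. With LPS, Casp4 was above Il1a on both lengths. There it averaged 14.3 CPM/kb by principal transcript and 5.52 CPM/kb by annotated exons, against 4.39 CPM/kb for Il1a.

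No member passed the test between LPS plus 3A2 and LPS. By edgeR's quasi-likelihood test, 0 of 9 members tested had a Benjamini-Hochberg adjusted p under 0.05, where 0 of 11498 genes did (0%), and DESeq2 and limma-voom called 0 members too. Without LPS plus 3A2 replicate 2 edgeR called 25 genes and again 0 members. At an unadjusted p under 0.05 edgeR had 2 of 9 members, Il1a and Il18, both higher with 3A2. The background at that level was 6.51% of all genes, and 3.43% counting those higher. Folds of the 9 members ran from 0.912 to 1.35, and their median was 0.040 on the log2 scale, against 0.0017 over all genes tested. The 95% interval of the fold lay within 1.5-fold in either direction for 7 of the 9, all but Il1a and Il18bp, and within 2-fold for 9 of 9. Over all genes those shares were 79.6% and 94.1%. Of the 9, 5 lay above 0 on the log2 scale (Il1a, Il1b, Il1rn, Il18 and Casp1) and 4 below (Il18bp, Nlrp3, Casp4 and Gsdmd).

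**Figure D2:**
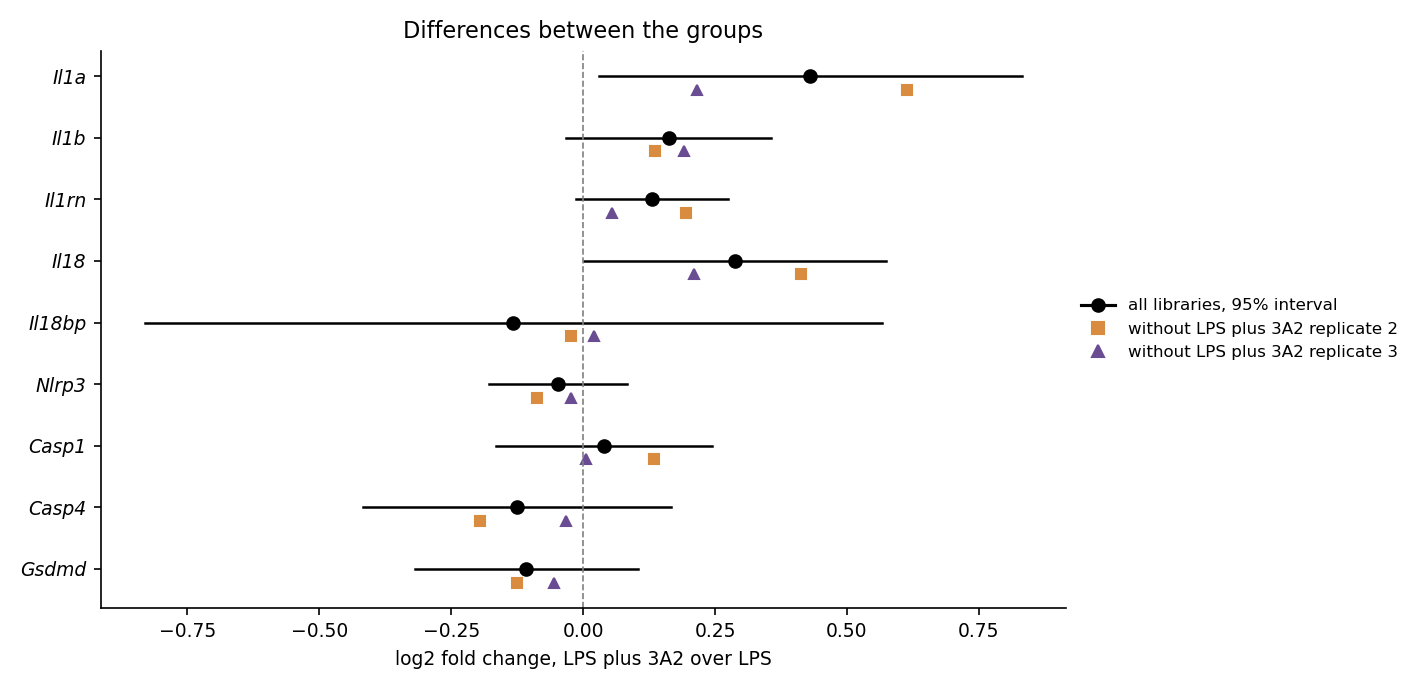
Log2 fold change of LPS plus 3A2 over LPS for the 9 tested genes, by edgeR, with black lines for the 95% interval from all 6 libraries; squares and triangles are the same value without LPS plus 3A2 replicate 2 or replicate 3. Il1a has the largest difference, 0.43 with all libraries, 0.61 without replicate 2 and 0.22 without replicate 3.

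Among the agonists, Il1a, which encodes IL-1α, a cytokine that is active without caspase-1, showed the largest fold. It measured 11.5, 8.62 and 15.03 CPM in LPS plus 3A2 replicates 1 to 3, from 71, 56 and 90 counts. The LPS libraries measured 9.08, 8.16 and 8.75 CPM, from 62, 61 and 57 counts. Replicates 1 and 3 with 3A2 were above all LPS libraries and replicate 2 was among them. The fold was 1.35 (95% interval 1.02 to 1.78), at an adjusted p of 0.748 by edgeR. The spread within the LPS plus 3A2 group was 27.4% of its mean, where counting alone gives 11.8%, against 5.38% and 12.9% in the LPS group. Without LPS plus 3A2 replicate 3 the log2 fold change was 0.22, and without replicate 2 it was 0.61, where the adjusted p was 0.126.

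Il1b, which encodes IL-1β, the cytokine that needs cutting by caspase-1, was the only member whose groups did not overlap. It measured 52.6, 53.9 and 49.9 CPM in LPS plus 3A2 replicates 1 to 3 and 42.0, 49.6 and 48.1 CPM in LPS replicates 1 to 3. The gap between the groups was small, from 49.9 CPM in the lowest 3A2 library to 49.6 CPM in the highest LPS library. Over all genes tested, 12.3% had groups that did not overlap, 5.84% with the 3A2 libraries higher and 6.46% with them lower, against 1 of 9 members. The fold was 1.12 (95% interval 0.978 to 1.28; adjusted p = 0.778 by edgeR). Il1b and Il1a lie next to each other on chromosome 2 and overlap RNAs of the other strand (Il1bos at Il1b, Gm14023 at Il1a) with at most 2 and 4 counts in a library.

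Il18, which encodes IL-18, a cytokine that drives interferon-γ production in lymphocytes, measured 37.0, 28.5 and 38.2 CPM with LPS plus 3A2. The LPS libraries measured 34.1, 24.1 and 26.7 CPM. The ranges overlapped, with LPS replicate 1 above LPS plus 3A2 replicate 2. The fold was 1.22 (95% interval 1.00 to 1.49; adjusted p = 0.748 by edgeR). On the log2 scale the difference was 0.29 from all 6 libraries, 0.44 without LPS replicate 1 and 0.18 without LPS replicate 2. Bco2, a carotenoid oxygenase gene, overlaps Il18 on the other strand with 90 to 133 counts in a library, and whether reads were counted by strand is not stated.

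The antagonist Il1rn measured 607, 559 and 678 CPM with LPS plus 3A2 and 591, 541 and 553 CPM with LPS. LPS plus 3A2 replicate 3 was the highest of all libraries, and replicate 2 lay within the LPS range. The fold was 1.09 (95% interval 0.991 to 1.21; adjusted p = 0.757 by edgeR), and on the log2 scale the difference was 0.13, or 0.055 without LPS plus 3A2 replicate 3. Il18bp had only 28, 18 and 15 counts with LPS plus 3A2 and 14, 37 and 24 with LPS. This was 4.54, 2.77 and 2.50 CPM with LPS plus 3A2 and 2.05, 4.95 and 3.68 CPM with LPS. The groups overlapped fully and the fold was 0.912 (95% interval 0.562 to 1.48; adjusted p = 0.95 by edgeR). These libraries do not tell folds within that interval apart. The spread was 33.9% of the mean with LPS plus 3A2 and 40.8% with LPS, where counting alone gives 22.2% and 20%. Numa1, a mitotic spindle gene with 912 to 1362 counts in a library, overlaps Il18bp on the opposite strand, which makes the low counts of Il18bp uncertain.

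Il1a, Il18 and Il1rn were each highest in LPS plus 3A2 replicate 3, the library with the most mitochondrial mRNA, and second highest in LPS plus 3A2 replicate 1, which came second for mitochondrial mRNA. In replicate 3, as log2 from the mean of 6 libraries, Il1a stood at 0.60, Il18 at 0.30 and Il1rn at 0.21, beside 0.45 for mitochondrial mRNA. In LPS plus 3A2 replicate 2, where mitochondrial mRNA stood at -0.14, they stood at -0.21, -0.12 and -0.069. Il1b did not follow that order, at 0.021 in replicate 3 and 0.13 in replicate 2. Nor did the other tested members. In replicate 3 Casp1 stood at 0.089, below its 0.15 in replicate 1. Nlrp3 stood at -0.072 in replicate 3, Gsdmd at -0.16, Casp4 at -0.26 and Il18bp at -0.38. The part of this library difference in the folds was not tested. The share of all genes that were likewise highest in replicate 3 and second highest in replicate 1 was not counted.

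**Figure D3:**
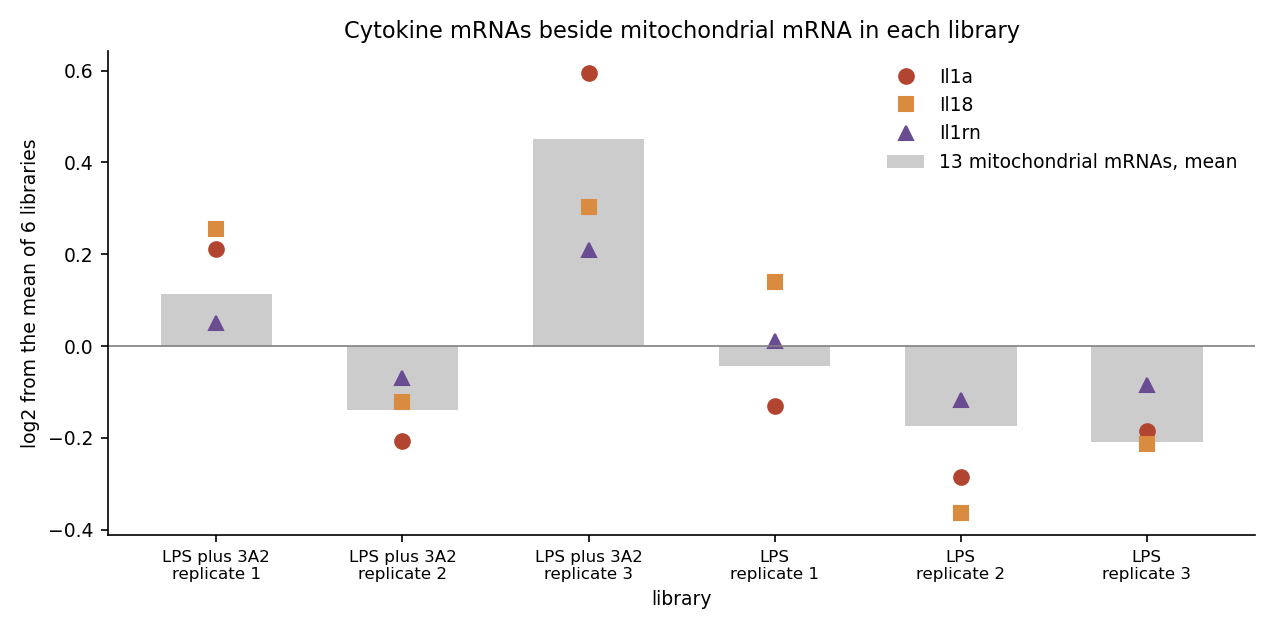
Log2 level of Il1a, Il18 and Il1rn in each library, relative to the mean of the 6 libraries, beside the mean of the 13 mitochondrially encoded mRNAs (grey bars); the 3 LPS plus 3A2 libraries are at the left and the 3 LPS libraries at the right. All 4 values are highest in LPS plus 3A2 replicate 3, and all 4 are below 0 in LPS plus 3A2 replicate 2.

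Il1rn reads outnumbered Il1b reads in every library. As ratios of counts, not corrected for length, Il1rn counts were 11.5, 10.4 and 13.6 times those of Il1b in LPS plus 3A2 replicates 1 to 3, and 14.1, 10.9 and 11.5 times in LPS replicates 1 to 3. On the log2 scale this was 3.56 ± 0.20 with LPS plus 3A2 and 3.59 ± 0.19 with LPS (SD, n = 3 each), a difference of -0.038. The log2 ratio of Il1a over Il1b was -2.19 ± 0.46 with LPS plus 3A2 and -2.42 ± 0.20 with LPS, a difference of 0.24. That of Il18bp over Il18 was -3.44 ± 0.46 with LPS plus 3A2 and -3.07 ± 0.91 with LPS, a difference of -0.37. Exact two-sided permutation tests of these 3 ratios gave p = 0.8, 0.6 and 0.5, each 0.8 after Benjamini-Hochberg adjustment, and 3 against 3 libraries cannot go below 0.1. The groups overlapped for all 3 ratios.

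Of the sensor Nlrp3, the caspases Casp1 and Casp4 and their substrate Gsdmd, 0 passed the test, and their folds ran from 0.917 to 1.03. Nlrp3 measured 259, 279 and 255 CPM with LPS plus 3A2 and 270, 280 and 270 CPM with LPS. LPS plus 3A2 replicates 1 and 3 lay below all LPS libraries, and replicate 2 lay among them. The fold was 0.968 (95% interval 0.883 to 1.06; adjusted p = 0.9 by edgeR), the narrowest interval of the set. Its spread was 4.75% of the mean with LPS plus 3A2 and 2.19% with LPS, where counting alone gives 2.47% and 2.3%.

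Casp1, which encodes the caspase that cuts the IL-1β and IL-18 precursors, measured 56.1, 44.8 and 53.9 CPM with LPS plus 3A2 and 48.9, 53.6 and 47.7 CPM with LPS. The LPS values lay inside the range of the 3A2 values, and the fold was 1.03 (0.892 to 1.18; adjusted p = 0.95 by edgeR). Casp4 measured 19.5, 20.5 and 16.2 CPM with LPS plus 3A2 and 17.6, 20.3 and 23.5 CPM with LPS, or 0.917-fold (0.749 to 1.12; adjusted p = 0.874 by edgeR). Casp4 and Casp1 are neighbours on chromosome 9 with related sequences, and the next caspase gene along, Casp12, had 0 counts in all libraries. Gsdmd, the pore-forming substrate of both caspases, measured 46.2, 45.3 and 40.9 CPM with LPS plus 3A2. With LPS it measured 47.0, 42.4 and 53.6 CPM, and the fold was 0.928 (0.802 to 1.07; adjusted p = 0.852 by edgeR). For both Casp4 and Gsdmd the lowest library was LPS plus 3A2 replicate 3 and the highest was LPS replicate 3. Without LPS replicate 3 the log2 fold change of Casp4 was -0.019, against -0.13 with all libraries, and that of Gsdmd was -0.018, against -0.11. Without LPS plus 3A2 replicate 3 they were -0.032 for Casp4 and -0.055 for Gsdmd. Other libraries left out made the differences larger. Casp4 stood at -0.22 without LPS replicate 1 and at -0.20 without LPS plus 3A2 replicate 2. Gsdmd stood at -0.19 without LPS replicate 2.

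The wider pathway was taken from 6 lists with 67 genes, all in the table, some under an older symbol. Of these, 47 passed the filter on low counts and 0 passed the test in either direction by edgeR, DESeq2 or limma-voom. At an unadjusted p under 0.05 edgeR had 3 of 47 higher and 0 lower, where all genes tested had 3.43% higher and 3.09% lower (6.51% in all), so the total was near the background. In all, 27 lay above 0 and 20 below, with a median of 0.031 on the log2 scale, and folds ran from 0.74 to 1.39. The 3 with the small p were Traf6, Tollip and Zbp1. The groups of libraries did not overlap for 4 of the 47 (Il1f9, Traf6, Tollip and Panx1), all higher with 3A2. Over all genes tested 12.3% did not overlap, 5.84% with the 3A2 libraries higher and 6.46% with them lower.

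**Figure D4:**
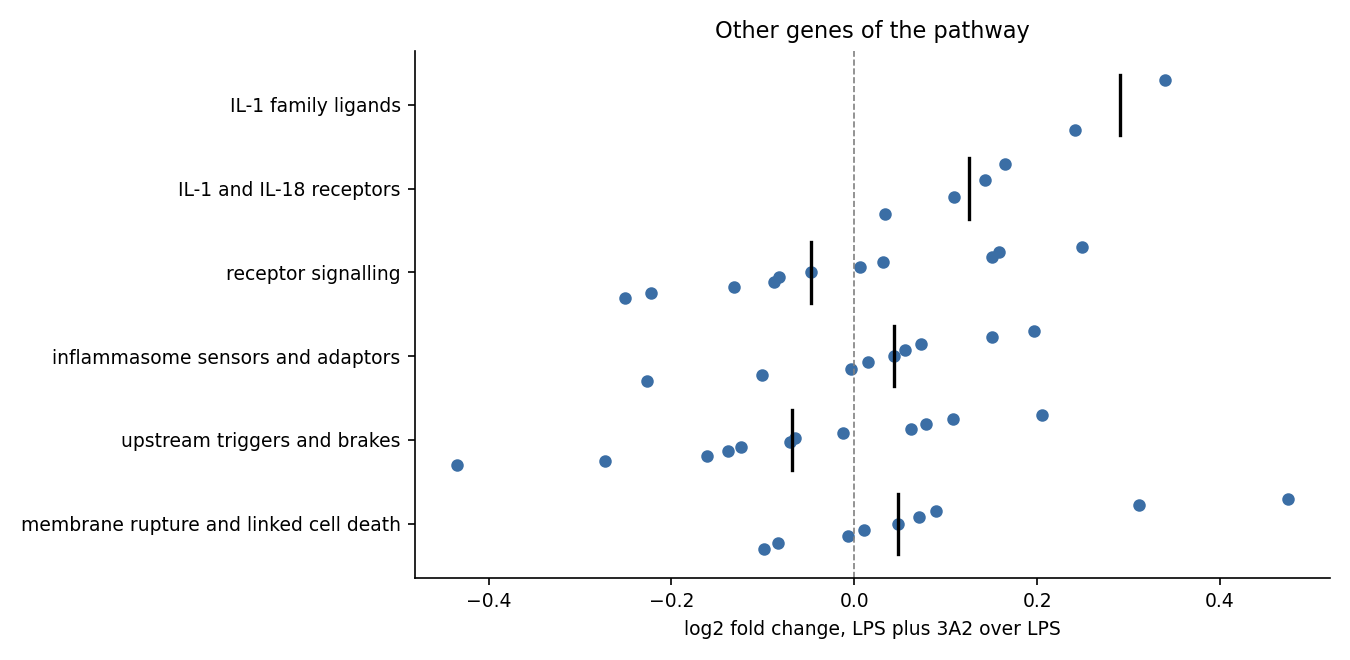
Log2 fold change of LPS plus 3A2 over LPS for the 47 tested genes of the 6 lists; each point is a gene, spread vertically within its list for legibility, and black lines are list medians. No point passed the threshold, and the points lie on both sides of 0 in 4 of the 6 lists.

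The receptors for these cytokines were measured unevenly. The chains that bind IL-1 and IL-18 were near absent: Il1r1, the signalling receptor for IL-1, had a count in 1 of 6 libraries, and so had Il1r2, the decoy receptor, and Il18r1, the IL-18 binding chain, with at most 2 counts. Il1rl1, the chain that binds IL-33, was present at 98 to 128 counts in a library and stood at 1.02-fold (95% interval 0.834 to 1.26). The partner chains were present as well. Il1rap, which pairs with several receptors of the family, averaged 28.4 ± 1.67 CPM with LPS plus 3A2 and 26.4 ± 2.42 CPM with LPS. Il18rap measured 43.2, 36.8 and 40.9 CPM with LPS plus 3A2 and 38.7, 35.7 and 35.0 CPM with LPS, or 1.10-fold (95% interval 0.954 to 1.28). Sigirr, a negative regulator of the family, measured 10.5, 10.5 and 8.51 CPM with LPS plus 3A2 and 8.64, 8.83 and 8.90 CPM with LPS, or 1.12-fold (0.873 to 1.44). All 4 receptor genes tested lay above 0 and 0 passed.

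Other ligands of the family were low. Il1f9, the older symbol of the IL-36γ gene, measured 3.25, 3.69 and 3.84 CPM with LPS plus 3A2 and 2.64, 2.94 and 2.92 CPM with LPS. The groups did not overlap, and the fold of 1.27 had an interval of 0.841 to 1.90. Il1f6, the IL-36α gene, stood at 1.18-fold (0.641 to 2.18). Il33 had 6 to 12 counts and was not tested, and Il1f5, Il1f8 and Il1f10 had 0 in all libraries.

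Signalling genes below the IL-1 receptor and the Toll-like receptors numbered 11, all tested, with 5 above 0 and 6 below and a median of -0.047. Traf6, a ubiquitin ligase that relays these signals, measured 44.0, 44.0 and 50.6 CPM with LPS plus 3A2 and 40.4, 39.3 and 36.7 CPM with LPS, without overlap. Its fold was 1.19 (95% interval 1.03 to 1.37; adjusted p = 0.719 by edgeR). Tollip, an adaptor that restrains the pathway, measured 80.5, 80.3 and 81.3 CPM with LPS plus 3A2 and 70.5, 73.3 and 73.2 CPM with LPS, also without overlap. Its fold was 1.12 (1.00 to 1.24; adjusted p = 0.748 by edgeR). Tab2, the member with the highest CPM, stood at 1.02-fold (0.92 to 1.13).

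Among 14 other sensors and adaptors 9 were tested, with 6 above 0 and 3 below and a median of 0.044. Mefv, which encodes pyrin, and Nlrp6 had 0 counts in all libraries. Nek7, a kinase that NLRP3 needs for assembly, averaged 50.2 ± 4.35 CPM with LPS plus 3A2 and 45.1 ± 6.38 CPM with LPS, or 1.11-fold (0.952 to 1.29). Naip5, a sensor of bacterial flagellin, stood at 0.854-fold (0.678 to 1.08). Txnip, the member with the highest CPM, stood at 0.998-fold (0.92 to 1.08). Aim2, the sensor of cytosolic DNA that also signals through ASC, was present at 377 to 511 counts in a library.

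Of 14 upstream triggers and brakes 12 were tested, with 4 above 0 and 8 below and a median of -0.068. Gbp2 and Gbp5 encode guanylate-binding proteins, which promote caspase-11 and NLRP3 responses. Gbp2 measured 14.1, 13.1 and 15.4 CPM with LPS plus 3A2 and 17.7, 18.3 and 15.2 CPM with LPS, or 0.828-fold (0.675 to 1.02). Gbp5 stood at 0.74-fold (0.508 to 1.08), from 22 to 42 counts in a library. The more abundant Gbp3 and Gbp7 of the same list stood at 0.992-fold (0.847 to 1.16) and 1.04-fold (0.92 to 1.18). Trim30a, the member with the highest CPM, stood at 1.08-fold (0.955 to 1.22).

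Of 13 genes of membrane rupture and linked cell death 9 were tested, with 6 above 0 and 3 below and a median of 0.048. Zbp1, a nucleic acid sensor of the necroptosis pathway, measured 20.6, 18.0 and 11.5 CPM with LPS plus 3A2 and 13.04, 12.2 and 10.9 CPM with LPS. LPS plus 3A2 replicate 3 lay inside the LPS range, and the fold was 1.39 (1.07 to 1.80; adjusted p = 0.719 by edgeR). Gsdme, another gasdermin, stood at 1.24-fold (0.864 to 1.78), and Ripk3, a necroptosis kinase and the member with the highest CPM, at 0.944-fold (0.846 to 1.05). Gsdma2, Gsdma3 and Gsdmc had 0 counts in all libraries.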

How the data were processed

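RNA was sequenced from 6 RAW264.7 cultures, 3 with LPS plus 3A2 and 3 with LPS. Libraries were strand-specific and paired-end, made after depletion of ribosomal RNA, per the labels' protocols. The authors deposited raw read counts per gene symbol, 1 column per library. HISAT2, edgeR and the human build GRCh38 are named without version or role, per the submitters' processing notes, while 39282 of 40773 symbols match a mouse RefSeq table. For the counter, the annotation and the strand setting, the sources used here give nothing. Promoters and gene positions are from RefSeq GRCm38.p6 and GENCODE M21, and no position was taken from the counts. Exon lengths are from GENCODE as well.

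Counts were filtered with filterByExpr (11498 genes left of 18179 with a count), scaled by TMM and compared in R 4.3.3 by edgeR 4.0.16, using the robust quasi-likelihood F test with no covariate. P-values are two-sided and were adjusted over all genes with a threshold of 0.05. CPM values use the scaled totals. On the log2 scale the median standard error was 0.119. The labels state biological triplicates. Every pair of libraries differed by more than sampling noise (chi-square per degree of freedom 3.33 to 22.0).

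Members, lists and tests were chosen with earlier results of these data known. All members are named, and from each further list the tested member with the highest CPM and the 2 of smallest p. Il1rap, Il1r1, Il1r2, Il18r1, Il1rl1, Il33, Aim2, Gbp3, Gbp7, Itgam, Trim72, Casp12 and the genes at 0 counts were chosen after their values were seen. Alternatives were other size factors, totals and filters, DESeq2 1.42.0, limma-voom (limma 3.58.1), a replicate block and leaving out each library. The length per transcript was added after seeing the data.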

Additional observations from a re-analysis of the deposited data

How the results depend on the processing

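Of 117 refits of the 9 tested members under 13 alternatives, 0 were called and 3 turned direction. With 1 library left out, the log2 fold change of Il18bp ran from -0.44 to 0.20 (0.20 without LPS replicate 2 and 0.021 without LPS plus 3A2 replicate 3) and that of Casp1 from -0.025 (without LPS plus 3A2 replicate 1) to 0.13; the cause was not tested. The counts of members and of pathway genes called were 0 under every one of these alternatives. Over all genes, edgeR called 0 genes with all libraries and 0 to 25 with 1 library left out, the highest without LPS plus 3A2 replicate 2; it called 16 with no filter on low counts. With the replicate number as a replicate block it called 1 gene and 0 members. Deviations from the group mean over all genes tested gave no sign that same-numbered libraries pair, with correlations of -0.0065, 0.032 and -0.16. With so few libraries in a group, this check cannot exclude shared days. Leaving out 1 library moved the log2 ratio difference of Il1rn over Il1b between -0.14 and 0.072, with 0.072 without LPS replicate 1 and 0.053 without LPS plus 3A2 replicate 2. That of Il18bp over Il18 moved between -0.87 and 0.018 (0.018 without LPS replicate 2), and that of Il1a over Il1b between 0.0071 and 0.46. With the replicate block exact sign-flip tests gave p = 0.75 for both ratios over Il1b and 0.5 for Il18bp over Il18. With 3 pairs such a test cannot reach a p under 0.05, so these values decide nothing. Other size factors or totals shifted the median of all genes by at most 0.0032. Of the tested members Il18bp had the fewest counts, 14 to 37 in a library.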
